A study of Mus musculus with 8 samples.

Results

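The Runx1 locus was examined as a window of 460 kb on mouse chromosome 16 (build mm9), set to span the 2 promoters of Runx1 and the enhancers in its introns. All peaks of the 8 deposited ATAC-seq peak lists that overlapped the window were taken as members. There were 300 of them among 557040 peaks in all, and no peak crossed an edge of the window. The first of them began at 92612645 and the last ended at 93056122. ATAC-seq cuts and tags DNA wherever the Tn5 transposase can reach it, so that a peak marks a stretch of open chromatin. Peaks of different libraries were merged where they overlapped by at least 1 bp, which gave 62 union regions in the window among 114533 in the genome, numbered here R1 to R62 by position. A library was said to call a region if it had a peak there.

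Runx1 encodes the DNA-binding subunit of core binding factor, a transcription factor that blood stem cells need for their emergence from endothelium and that later acts in megakaryocyte, lymphoid and myeloid cells. It is often mutated or rearranged in acute myeloid leukemia. The gene lies on the minus strand and is read from a distal promoter, P1, and a proximal promoter, P2, so that the higher coordinates of the window lie upstream. An intronic enhancer between the promoters is known to be active in blood stem and progenitor cells, and further elements inside and upstream of the gene have been described in mice. In the RefSeq gene table of GRCm38, a later mouse build, the neighbouring protein-coding genes of Runx1 are Clic6 and Setd4.

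Cells were c-Kit+ cells selected from the bone marrow of individual mice, taken 4 weeks after PIpC, with 50000 cells per sample and 2 libraries per genotype. All mice received PIpC, which induces the interferon-responsive Mx1-Cre recombinase and so deletes a floxed allele in blood cells and in other interferon-responsive cells. Smc3-deleted Flt3-ITD mice carried Mx1-Cre, a floxed Smc3 allele and Flt3-ITD. Their genotype label reads Smc3 fl/del Flt3-ITD whereas their title says heterozygous, so the state of the second Smc3 allele is not settled. Flt3-ITD mice carried an activating internal tandem duplication in Flt3, a receptor tyrosine kinase of progenitor cells, and Mx1-Cre by their title. Smc3 del/+ mice had lost 1 allele of Smc3, a core subunit of the cohesin ring, and carried Mx1-Cre by their title. Control mice were Smc3 fl/+ without Mx1-Cre, so every comparison with control also compares mice with and without the recombinase. Title and genotype label name both single genotypes alike, but the longer free-text description of Flt3-ITD fits Smc3 del/+ and the reverse; title and genotype were followed. Strain, sex and age were not stated. Nothing in the labels says outright that both libraries of a genotype came from different mice, so the spread that p-values rest on is that between libraries and may be technical.

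The lists held between 61953 and 80698 peaks and covered between 34.1 and 41.7 Mb, and the longest were both from Smc3-deleted Flt3-ITD. No list carries a read number, so the depth of each library is unknown and a missing call cannot be told from shallower sequencing. The c-Kit+ fraction is a mixture, and a site open in fewer cells cannot be told apart from one less open in each cell. The Smc3-deleted Flt3-ITD libraries had 294 and 282 peaks on chromosome Y, against 84 to 98 in the other 6 libraries. They thus stood apart on a chromosome outside the window, and their part in the results below was not tested. The cell type was not checked against marker genes, since no mm9 annotation was used here.

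The sequences of both promoters follow, because the window was drawn around them. They are the 250 bases before each of the 2 Runx1 starts in the RefSeq promoter table (GRCm38.p6, minus strand), written 5′ to 3′. Capitals mark matches to 6 short motifs on either strand: TGTGGT for RUNX factors, AGATAA for GATA factors, CGGAA for ETS factors, CAGCTG for the E-box, CCAAT for the CCAAT box and GGGCGG for the GC box. No matches overlap here.

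Upstream start (P1): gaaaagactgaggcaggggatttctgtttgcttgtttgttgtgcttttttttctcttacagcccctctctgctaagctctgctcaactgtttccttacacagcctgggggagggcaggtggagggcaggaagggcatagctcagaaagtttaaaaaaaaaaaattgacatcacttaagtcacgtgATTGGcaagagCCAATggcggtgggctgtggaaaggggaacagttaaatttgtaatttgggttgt

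Downstream start (P2): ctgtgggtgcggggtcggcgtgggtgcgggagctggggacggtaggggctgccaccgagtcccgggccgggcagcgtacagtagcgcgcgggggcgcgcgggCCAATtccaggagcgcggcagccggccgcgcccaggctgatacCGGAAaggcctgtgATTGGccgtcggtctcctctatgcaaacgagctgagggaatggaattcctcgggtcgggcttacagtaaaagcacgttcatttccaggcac

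The upstream promoter had 45.6% G and C and 2 CpG dinucleotides, and the downstream promoter 67.6% and 27. The median of the 32851 promoters in the table was 52.4% G and C. Both held 2 CCAAT boxes, a motif found in 33.8% of all promoters of that length, and the downstream promoter also held 1 ETS match, found in 25.2%. The strings searched for the other motifs were in neither window of letters. These strings occur in 14% (RUNX), 9.99% (GATA), 13% (E-box) and 32.7% (GC box) of all promoters. Each motif was searched only as the exact string given above, so other forms of the E-box or of ETS sites were not counted. A missing match therefore does not show that a promoter lacks the motif. These sequences belong to another build than the peaks, so no peak was assigned to either promoter, and no sequence was read at a peak.

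Peaks were dense across the window and came in groups. The window held 30 to 46 peaks per library. The median window of the same length on the 19 autosomes held 7 to 10, and between 4.19% and 10.1% of such windows held at least as many as the locus did in the same library. The equally long stretch just before it held 11 to 22 peaks, with 27 regions, of which 7 were called in all 8 libraries. The stretch just after it held 9 to 21 peaks, with 28 regions, of which 4 were called in all 8 libraries. Between the regions were 5 gaps of over 20 kb with no peak in any library, the longest of them 53.6 kb (from 92959923 to 93013521) and 36.3 kb (from 92922874 to 92959219).

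**Figure D1:**
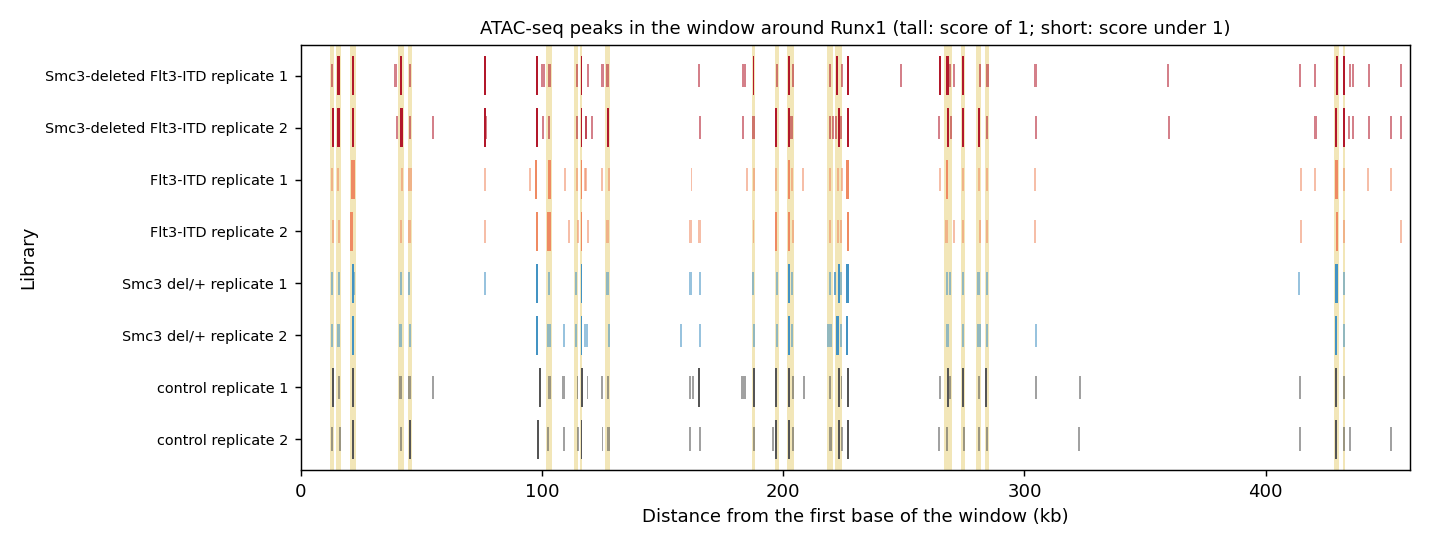
Peaks of each library (rows) by distance in kb from the first base of the window; tall bars have a score of 1 and short pale bars a lower score, bars are drawn at least 0.8 kb wide, and cream bands mark the 21 regions called in all 8 libraries. The bands run through every row, whereas most other peaks fill only some of the rows.

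Of the 62 regions, 21 (33.9%) were called in all 8 libraries, against 31.5% of all union regions of the genome. Another 16 (25.8%) were called in a single library, against 24.0% genome-wide, and 25 were called in 2 to 7 libraries. Shared and single calls thus had shares near those of the whole genome. Both libraries agreed in every genotype for 24 of the 62 regions, which include the 21 called everywhere. The same share over the whole genome was not computed, so nothing is read from this count.

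Each deposited peak carries the authors' own score, deposited between 0.99 and 1, which ranks peaks only within a list. Expressed as a percentile within the list, regions called in all libraries had a median of 63.6, with a range of 34.1 to 84.3. Regions called in 1 library had a median of 16.1, with a range of 2.0 to 84.6. Single calls therefore mostly sat low in their lists, and 2 of them had a score of exactly 1. Peaks with a score of 1 made up 22.5% to 37.0% of a library's peaks in the window, against 27.2% to 34.9% of its whole list.

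A score of 1 in all 8 libraries was held by 4 regions, a count that was not made for the whole genome. These were R3 (chr16:92620618-92622487), R19 (chr16:92715995-92716434), R33 (chr16:92802082-92802619) and R56 (chr16:93028760-93029975). R33, R57 (chr16:93032119-93032620, named after its values were seen) and R19 were the most fixed in place. The centre of the peak had an SD over the 8 libraries of 24.7 bp in R33, 29.9 bp in R57 and 30.1 bp in R19, against a median of 171 bp over the 21 shared regions. R33 had 371 and 380 bp under peaks in Smc3-deleted Flt3-ITD, 524 and 402 bp in Flt3-ITD, 415 and 349 bp in Smc3 del/+, and 370 and 345 bp in control. R19 had 329 and 372 bp in Smc3-deleted Flt3-ITD, 403 and 410 bp in Flt3-ITD, 372 and 300 bp in Smc3 del/+, and 321 and 440 bp in control. At R33 both Flt3-ITD values lay above those of Smc3-deleted Flt3-ITD and control, and Smc3 del/+ spanned both of the Smc3-deleted Flt3-ITD values. At R19 both Flt3-ITD values lay above those of Smc3-deleted Flt3-ITD and Smc3 del/+ and between those of control. The widest library exceeded the narrowest by 1.52 times in R33 and 1.47 times in R19, the smallest ratio of the 21 regions.

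A pair of short spans also had a peak of score 1 in every library, but the peaks did not all overlap each other, so merging divided them. Both were singled out after their values were seen. The first span ran from 92697284 to 92699149 and held exactly 1 peak per library. In 6 libraries it lay in R12 (chr16:92697747-92698190), with 413 and 429 bp in Smc3-deleted Flt3-ITD, 442 bp in Flt3-ITD replicate 2, 444 and 388 bp in Smc3 del/+, and 385 bp in control replicate 2. In Flt3-ITD replicate 1 a peak of 413 bp stood just before it in R11 (chr16:92697284-92697696), and in control replicate 1 a peak of 384 bp stood after it in R13 (chr16:92698766-92699149). The divided calls thus separated replicates of a genotype, not genotypes.

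The second span, 1004 bp long, ran from 92825911 to 92826914 and comprised R40 (chr16:92825911-92826383) and R41 (chr16:92826450-92826914). R41 was called in every library except Smc3 del/+ replicate 2. R41 covered 281 and 204 bp in Smc3-deleted Flt3-ITD, 447 and 295 bp in Flt3-ITD, 101 bp in Smc3 del/+ replicate 1, and 230 and 311 bp in control. R40 covered 420 bp in Flt3-ITD replicate 1 and 465 and 157 bp in Smc3 del/+, and was not called in the other 5 libraries. The median peak centres of the spans lay 128.6 kb apart. The 2 RefSeq starts lie 128.7 kb apart in GRCm38, a distance in another build that places neither start on a peak.

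At each of the 10 widest shared regions except R5 and R6, libraries of at least 1 genotype differed by over 2 times. R44 (chr16:92867148-92869700) had the most bases under peaks on average, 1331 bp. It covered 2190 and 894 bp in Smc3-deleted Flt3-ITD, 1047 and 1352 bp in Flt3-ITD, 2165 and 1315 bp in Smc3 del/+, and 1210 and 476 bp in control. R39 (chr16:92821652-92824240) followed with 1209 bp on average, and was the only shared region with at least 2 separate peaks in every library. R39 covered 1057 and 1950 bp in Smc3-deleted Flt3-ITD, 597 and 1519 bp in Flt3-ITD, 1077 and 1734 bp in Smc3 del/+, and 800 and 937 bp in control. At R39 both control values lay below those of Smc3-deleted Flt3-ITD and Smc3 del/+, while Flt3-ITD overlapped all 3, its replicates differing by 2.54 times.

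R15 (chr16:92701911-92703800) covered 779 and 342 bp in Smc3-deleted Flt3-ITD, 1213 and 1784 bp in Flt3-ITD, 367 and 1714 bp in Smc3 del/+, and 1192 and 1122 bp in control. Both Smc3-deleted Flt3-ITD values lay below both control values there, but the replicates of Smc3 del/+ spanned nearly the whole range. R5 (chr16:92640778-92642375) covered 943 and 1304 bp in Smc3-deleted Flt3-ITD, 675 and 920 bp in Flt3-ITD, 816 and 998 bp in Smc3 del/+, and 1317 and 903 bp in control. R2 (chr16:92614978-92616385) covered 1162 and 1180 bp in Smc3-deleted Flt3-ITD, 950 and 851 bp in Flt3-ITD, 919 and 1174 bp in Smc3 del/+, and 1051 and 415 bp in control. At R5 every genotype overlapped at least 1 other. At R2 both Smc3-deleted Flt3-ITD values lay above both Flt3-ITD and both control values, and Smc3 del/+ replicate 2 lay between the pair from Smc3-deleted Flt3-ITD.

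R6 (chr16:92644609-92645968) covered 379 and 259 bp in Smc3-deleted Flt3-ITD, against 1338 and 849 bp in Flt3-ITD, 596 and 986 bp in Smc3 del/+, and 1229 and 1011 bp in control. Both Smc3-deleted Flt3-ITD libraries were the narrowest of the 8 at R6. R23 (chr16:92726565-92728045) covered 1155 and 344 bp in Smc3-deleted Flt3-ITD, 372 and 1094 bp in Flt3-ITD, 1161 and 554 bp in Smc3 del/+, and 914 and 1145 bp in control. R48 (chr16:92883786-92885158) covered 1096 and 937 bp in Smc3-deleted Flt3-ITD, 1087 and 631 bp in Flt3-ITD, 1082 and 310 bp in Smc3 del/+, and 882 and 337 bp in control. At R23 every genotype had 1 library above 1000 bp, with the other replicate below it, and at R48 the same held for all genotypes but control.

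R37 (chr16:92818288-92820200) covered 449 and 407 bp in Smc3-deleted Flt3-ITD, 421 and 900 bp in Flt3-ITD, 377 and 1913 bp in Smc3 del/+, and 821 and 1068 bp in control. The highest and the lowest value of R37 were the 2 Smc3 del/+ libraries, 5.07 times apart. R47 (chr16:92880276-92881850) covered 287 and 552 bp in Smc3-deleted Flt3-ITD, 973 and 172 bp in Flt3-ITD, 1428 and 1575 bp in Smc3 del/+, and 522 and 320 bp in control. Both Smc3 del/+ libraries were the widest of the 8 at R47, and Flt3-ITD replicates differed by 5.66 times. Across the 21 shared regions the widest library exceeded the narrowest by a median of 3.26 times, from 1.47 times at R19 to 9.16 times at R47. Replicates of 1 genotype differed by over 2 times in 18 of the 84 combinations of region and genotype, spread over 12 regions. Neither these ratios nor this count was computed for the whole genome, so they are not read as a trait of the window.

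**Figure D2:**
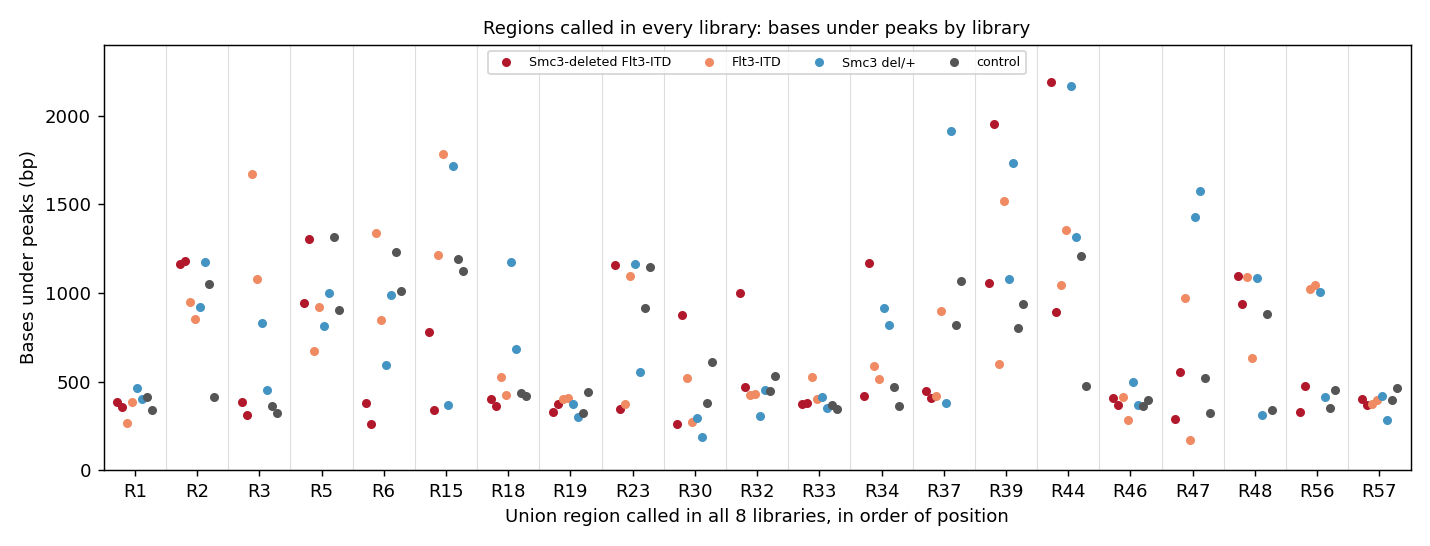
Bases under peaks in bp (vertical axis) for the 21 regions called in all 8 libraries (horizontal axis, by position); each point is a library, coloured by genotype. The points of a genotype are often as far apart as those of different genotypes; at R3 both Flt3-ITD points, 1673 and 1078 bp, stand above the rest.

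Widths of the shared regions were compared with limma on the log2 scale, fitted over all 36101 regions of the genome called in every library, with all 4 genotypes sharing 1 estimate of the spread. Of the 21 shared regions, 0 passed an adjusted p of 0.05 in any of the 6 genotype pairs or the 3 contrasts over 8 libraries, against 0.0% of all regions tested in each. At an unadjusted p under 0.05 there were 12 results among 189 in the window, 4 wider and 8 narrower, and 5.92% among all regions. The lowest adjusted p in the window was 0.645 (limma, Benjamini-Hochberg over 36101 regions), and between 0.206 and 0.790 over 17 alternative settings. The typical standard error of a pair's log2 difference was 0.53.

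The regions with the lowest unadjusted p were R3, R6, R18 and R56, named here after their values were seen. R3 covered 383 and 312 bp in Smc3-deleted Flt3-ITD, 1673 and 1078 bp in Flt3-ITD, 832 and 454 bp in Smc3 del/+, and 361 and 322 bp in control. Both Flt3-ITD libraries lay above the other 6 at R3, a log2 difference over control of 1.91 ± 0.46 (SE) with an adjusted p of 0.742 in limma. The log2 difference of Smc3-deleted Flt3-ITD over Flt3-ITD at R3 was -1.88 ± 0.46 (SE; adjusted p = 0.740, limma). R56 covered 330 and 473 bp in Smc3-deleted Flt3-ITD, 1020 and 1045 bp in Flt3-ITD, 1004 and 414 bp in Smc3 del/+, and 350 and 450 bp in control. Both Flt3-ITD libraries were again the widest, but Smc3 del/+ replicate 1 reached nearly the same width, and the log2 difference of Flt3-ITD over control, 1.31 ± 0.52 (SE), had an adjusted p of 0.878 in limma. R18 (chr16:92713528-92714845) covered 401 and 360 bp in Smc3-deleted Flt3-ITD, 523 and 426 bp in Flt3-ITD, 1175 and 681 bp in Smc3 del/+, and 434 and 419 bp in control. Both Smc3 del/+ libraries were the widest at R18, and the log2 difference over control was 0.96 ± 0.37 (SE; adjusted p = 0.735, limma). For R6 the log2 difference of Smc3-deleted Flt3-ITD over control was -1.82 ± 0.53 (SE; adjusted p = 0.999996, limma).

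**Figure D3:**
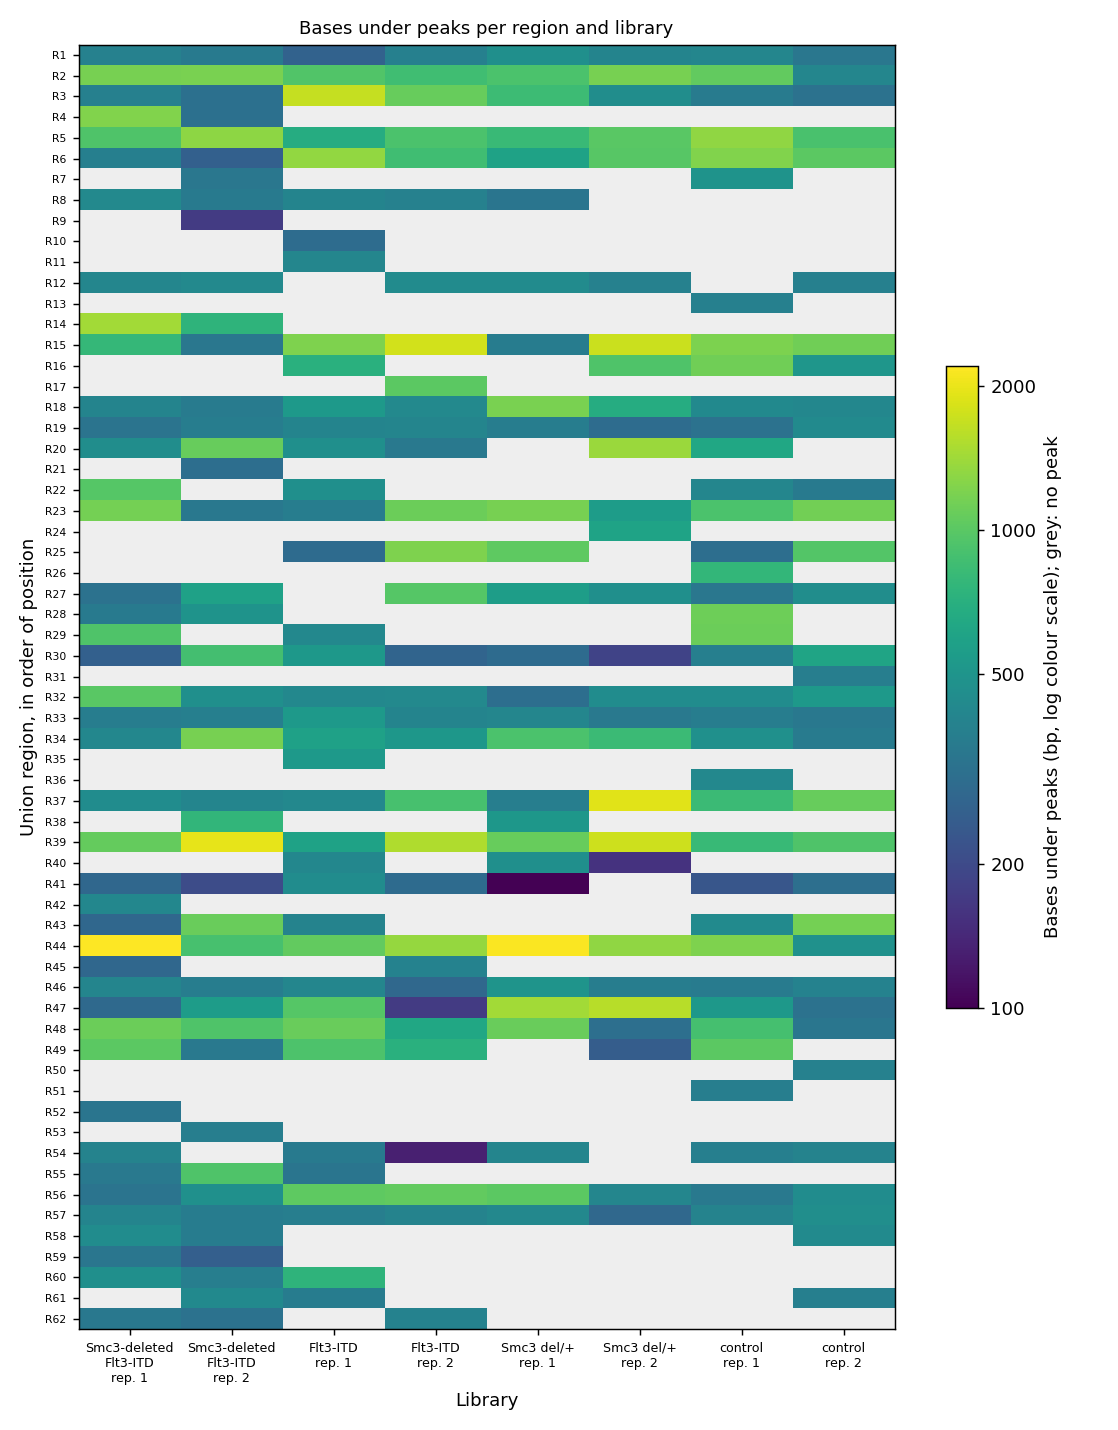
Bases under peaks in bp (colour, log scale; grey where no peak was called) for the 62 union regions by position (rows) in the 8 libraries (columns). The 21 shared regions form unbroken coloured rows, and near the bottom R55, R58, R59, R60 and R62 are coloured in both Smc3-deleted Flt3-ITD columns and in at most 1 other column.

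For the genotype pairs, gained means that the first genotype had a peak in its 2 libraries and the second in none, and lost means the opposite. Since permuting 2 against 2 libraries cannot give a two-sided p below 0.333, none is printed. Each count of the main setting is set beside the share of all regions that the same rule called. Counts with equal list length, a library left out or another alternative have no such share beside them. Whether they are high or low for the window cannot be read from them. Comparisons that share the control libraries, or those of another genotype, are not independent of each other. In all, 14 regions of the window were gained or lost in at least 1 pair, a count that was not made for the whole genome.

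Smc3-deleted Flt3-ITD over control had the most gains of the 3 comparisons with control. It gained 7 of 40 regions, or 17.5%, against 14.2% of all regions tested, and lost 2, or 5%, against 6.0%. Both shares lay near those of the whole genome. The gained regions were R4, R8, R14, R55, R59, R60 and R62. R4 (chr16:92638859-92640076, 1218 and 313 bp), R14 (chr16:92699777-92701213, 1437 and 747 bp) and R59 (chr16:93035677-93036011, 335 and 254 bp) had a peak in Smc3-deleted Flt3-ITD replicates 1 and 2 and in no other library. R4 and R59 ranked low, at mean score percentiles of 20.4 and 6.23. R14 had a mean of 35.7, from 54.2 in replicate 1 and 17.3 in replicate 2. Control peaks came within 1 kb of R4, R14 and R59: both libraries 627 and 697 bp from R14, replicate 1 at 701 bp from R4, and replicate 2 at 741 bp from R59.

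R8 (chr16:92675825-92676282) was gained over control in Smc3-deleted Flt3-ITD as well as in Flt3-ITD, and was the sole gain of Flt3-ITD over control. It covered 428 and 359 bp in Smc3-deleted Flt3-ITD, 402 and 390 bp in Flt3-ITD, and 331 bp in Smc3 del/+ replicate 1, and had no peak in Smc3 del/+ replicate 2 or in either control library. All 4 libraries with Flt3-ITD thus had a peak at R8, as had 1 of the 4 without. The mean score percentile of its peaks was 82.6 in Smc3-deleted Flt3-ITD libraries, against 43.5 in Flt3-ITD libraries. The nearest control peaks lay 20966 and 21499 bp away, in contrast to the 3 regions above. The same calls over 8 libraries occurred in 167 regions of the genome, 5 of them on chromosome 16 outside the window, the nearest at chr16:55906678-55907882.

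R55, R60 and R62 each had peaks in both Smc3-deleted Flt3-ITD replicates and in 1 Flt3-ITD library. R55 (chr16:93020136-93021075) covered 349 and 940 bp in Smc3-deleted Flt3-ITD and 331 bp in Flt3-ITD replicate 1. R60 (chr16:93042109-93042870) covered 468 and 377 bp in Smc3-deleted Flt3-ITD and 745 bp in Flt3-ITD replicate 1. R62 (chr16:93055727-93056122) covered 344 and 321 bp in Smc3-deleted Flt3-ITD and 396 bp in Flt3-ITD replicate 2. No Smc3 del/+ or control library had a peak in any of the 3, and none came within 1 kb of them. The nearest control peaks lay 5999 and 6077 bp from R55, 9593 and 7173 bp from R60, and 23211 and 3938 bp from R62. The calls of R55 and R60 were shared by 1230 regions of the genome, the nearest at chr16:92598212-92598635, just before the window, and chr16:94468839-94469226. Those of R62 were shared by 849 regions, the nearest on chromosome 16 at chr16:91030623-91031881.

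The last 42.6 kb with peaks, from R54 to R62, is the stretch farthest upstream of the gene. It held 9 regions, of which 4 were among the 7 gained in Smc3-deleted Flt3-ITD over control, where 17.5% of the window's regions and 14.2% of all regions tested were gained. Smc3-deleted Flt3-ITD libraries had 8 and 8 peaks there, Flt3-ITD libraries 6 and 4, Smc3 del/+ libraries 3 and 2, and control libraries 3 and 5. This stretch was chosen after its values were seen, so nothing is read from its count. The window of 460 kb that follows had 21 and 21 peaks in Smc3-deleted Flt3-ITD, 11 and 9 peaks in Flt3-ITD, 10 and 10 in Smc3 del/+, and 18 and 15 in control. In that window too Smc3-deleted Flt3-ITD libraries had the most peaks, followed by those of control. The lists of Smc3-deleted Flt3-ITD were the longest of the series. Neither set of numbers was scaled to list length, and the part of list length in them was not tested.

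The 2 regions lost in Smc3-deleted Flt3-ITD over control were R16 and R25. R16 (chr16:92708434-92709875) had no peak in Smc3-deleted Flt3-ITD, 715 bp in Flt3-ITD replicate 1, 943 bp in Smc3 del/+ replicate 2, and 1125 and 510 bp in control. R25 (chr16:92760862-92762150) had no peak in Smc3-deleted Flt3-ITD, 295 and 1214 bp in Flt3-ITD, 1021 bp in Smc3 del/+ replicate 1, and 304 and 963 bp in control. R25 was the sole region lost over Flt3-ITD as well. Neither had a peak within 1 kb in a Smc3-deleted Flt3-ITD library. The calls of R16 were shared by 66 regions of the genome, the nearest at chr16:77364870-77365625 and chr16:96905873-96906929. Those of R25 were shared by 129 regions, with 0 on chromosome 16 outside the window. Leaving out a library loosens the rule for its genotype. Without Smc3-deleted Flt3-ITD replicate 1 there were 11 gains and 4 losses over control, and without control replicates 1 and 2 in turn there were 4 and 6 losses. With the same number of peaks in each list, 61953, the counts were 3 gained and 4 lost.

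Over Flt3-ITD, Smc3-deleted Flt3-ITD gained 5 of 38 regions, or 13.2%, against 13.0% of all regions tested, and lost 1, or 2.63%, against 2.96%. The gained regions were R4, R14 and R59, described above, with R28 and R58. R28 (chr16:92782314-92783430) covered 358 and 491 bp in Smc3-deleted Flt3-ITD and 1117 bp in control replicate 1. R58 (chr16:93034147-93034935) covered 449 and 365 bp in Smc3-deleted Flt3-ITD and 440 bp in control replicate 2. Both were called in 1 control library and in no library of either single genotype. The calls of R28 were shared by 740 regions, the nearest at chr16:92581579-92582913 and chr16:93144198-93144940, and those of R58 by 324, the nearest on chromosome 16 at chr16:91562070-91562577. With equal list length 2 regions were gained and 1 lost. Without Smc3-deleted Flt3-ITD replicate 1 there were 10 gained and 2 lost, without Flt3-ITD replicate 1 there were 8 and 3, and without Flt3-ITD replicate 2 there were 6 lost.

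Over Smc3 del/+, Smc3-deleted Flt3-ITD gained 9 of 37 regions, or 24.3%, against 19.7% of all regions tested, and lost 1, or 2.70%, against 5.95%. This pair joined the longest and the shortest lists, and with equal list length it gained 4. The gained regions were R4, R14, R28, R55, R58, R59, R60 and R62, described above, with R43. R43 (chr16:92863955-92865107) covered 281 and 1083 bp in Smc3-deleted Flt3-ITD, 397 bp in Flt3-ITD replicate 1, and 441 and 1153 bp in control. It had no peak in either Smc3 del/+ library or in Flt3-ITD replicate 2, and the nearest Smc3 del/+ peaks lay 2243 and 2185 bp away. The region lost was R40. Smc3-deleted Flt3-ITD replicates 1 and 2 had their nearest peaks 130 and 66 bp from it, in the neighbouring R41. Without either Smc3-deleted Flt3-ITD library there were 14 gains, and without Smc3 del/+ replicates 1 and 2 in turn there were 3 and 2 losses.

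Smc3 del/+ over control compares mice that lost 1 Smc3 allele with mice that did not, and also mice with and without Mx1-Cre. Smc3 del/+ gained 1 of 30 regions, or 3.33%, against 3.02% of all regions tested, and lost 2, or 6.67%, against 8.04%. Both shares lay near those of the whole genome. The gain was R40, and both control libraries had a peak 138 and 67 bp away, in R41. With peaks up to 200 bp apart merged, Smc3 del/+ gained 0 regions. The calls of R40 were shared by 60 regions of the genome, the nearest on chromosome 16 at chr16:87189920-87190390. The losses were R43 and R22 (chr16:92724604-92725579). R22 had no peak in Smc3 del/+ and covered 411 and 356 bp in control. It also covered 976 bp in Smc3-deleted Flt3-ITD replicate 1 and 469 bp in Flt3-ITD replicate 1. The calls of R43 were shared by 450 regions, the nearest on chromosome 16 at chr16:91084348-91085247, and those of R22 by 101, the nearest there at chr16:75869270-75870361. Without Smc3 del/+ replicates 1 and 2 in turn there were 2 and 3 gains, and without Smc3 del/+ replicate 1 there were 5 losses. Without control replicate 1 there were 6 losses, and without control replicate 2 there were 2 gains and 9 losses.

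Flt3-ITD over control gained 1 of 31 regions (R8), or 3.23%, against 4.42% of all regions tested, and lost 0, against 7.85%. Flt3-ITD over Smc3 del/+ gained 0 and lost 0 of 30 regions, against 8.69% and 7.91% of all regions tested. No region of the window therefore separated the single genotypes by its calls in all of their libraries, at lists of similar length. By width, no shared region of the window passed the threshold between the single genotypes either. Both Flt3-ITD libraries covered more bases than both Smc3 del/+ libraries at R3 (adjusted p = 0.657, limma). The reverse held at R18 (adjusted p = 0.699, limma). Both regions were named after their values were seen, and the share of all regions with such non-overlapping widths was not computed. The counts of gains and losses changed when single libraries were left out. For gains of Flt3-ITD over control the count was 5 without Flt3-ITD replicate 1, 7 without Flt3-ITD replicate 2, 3 without control replicate 1 and 2 without Smc3-deleted Flt3-ITD replicate 1. For losses it was 4 without Flt3-ITD replicate 1, 3 and 6 without control replicates 1 and 2 in turn, and 1 without Smc3-deleted Flt3-ITD replicate 1. Over Smc3 del/+, Flt3-ITD gained 4 and 9 without its replicates 1 and 2 in turn, 4 and 2 without those of Smc3 del/+, and 1 without Smc3-deleted Flt3-ITD replicate 1. It lost 1 and 2 without its own replicates 1 and 2 in turn, and 1 without either Smc3 del/+ library.

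The window as a whole was compared by exact two-sided permutation tests over the 8 libraries, 4 against 4, for the contrasts of Flt3-ITD, of Smc3 deletion and of their interaction. The interaction sets Smc3-deleted Flt3-ITD and control against both single genotypes. The smallest p of such a test is 0.0286, and p-values were adjusted over 15 tests. The window held 45 and 46 peaks in Smc3-deleted Flt3-ITD, 40 and 33 peaks in Flt3-ITD, 33 and 30 in Smc3 del/+, and 39 and 34 in control. Both Smc3-deleted Flt3-ITD libraries had more peaks than any other library, and the other genotypes overlapped or adjoined each other. The means were 45.5 ± 0.707 peaks in Smc3-deleted Flt3-ITD, 36.5 ± 4.95 in Flt3-ITD, 31.5 ± 2.12 in Smc3 del/+ and 36.5 ± 3.54 in control (SD, n = 2 each). The 4 libraries with Flt3-ITD had 7 more peaks on average than the 4 without, 41 against 34 (exact p = 0.143, adjusted p = 0.357). The difference for Smc3 deletion was 2 peaks (38.5 against 36.5, exact p = 0.657, adjusted p = 0.821), and it turned to -0.167 and -0.5 without Smc3-deleted Flt3-ITD replicates 1 and 2 in turn. That for the interaction was 7 (41 against 34, exact p = 0.143, adjusted p = 0.357).

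Relative to list length the genotypes lay closer together. Peaks in the window made up 558 and 573 per 1000000 peaks of the list in Smc3-deleted Flt3-ITD, 596 and 514 such peaks in Flt3-ITD, 533 and 473 in Smc3 del/+, and 523 and 525 in control. Flt3-ITD replicates spanned a wider range than the genotype means did. The difference for Flt3-ITD was 46.5 per 1000000 (560 against 514, exact p = 0.114, adjusted p = 0.357). For Smc3 deletion it was -5.38 per 1000000 (exact p = 0.886) and for the interaction 15.8 (exact p = 0.571), both with an adjusted p of 0.821 or more.

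Bases under peaks in the window came to 25667 and 23947 bp in Smc3-deleted Flt3-ITD, 23389 and 22022 bp in Flt3-ITD, 20526 and 21171 bp in Smc3 del/+, and 23777 and 18523 bp in control. The 2 control libraries held both a value above most others and the lowest of all. The difference for Flt3-ITD was 2757 bp (exact p = 0.0857, adjusted p = 0.357), and with equal list length it was -38.2 bp. As a share of the bases of the list, the window made up 0.0619% and 0.0574% in Smc3-deleted Flt3-ITD, 0.0615% and 0.0604% of them in Flt3-ITD, 0.0562% and 0.0569% in Smc3 del/+, and 0.0610% and 0.0544% in control. None of the contrasts in this share passed after adjustment, the lowest adjusted p being 0.357 for Flt3-ITD (difference 0.00313 percentage points, exact p = 0.114).

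The median width of the window's peaks was 409 and 378.5 bp in Smc3-deleted Flt3-ITD, 446.5 and 516 bp in Flt3-ITD, 514 and 566 bp in Smc3 del/+, and 434 and 429.5 bp in control. Every library of the single genotypes thus had a higher median width than every library of Smc3-deleted Flt3-ITD and control. These medians are taken over different peaks in each library. The interaction difference was -97.9 bp (413 against 511 bp), with the smallest exact p that the permutations can give, 0.0286, and an adjusted p of 0.357, which did not pass. It ran from -119 to -79.4 bp when each library was left out in turn. Whole lists had median widths of 406 and 407 bp in Smc3-deleted Flt3-ITD, 422 and 424 bp in Flt3-ITD, 434 and 432 bp in Smc3 del/+, and 409 and 408 bp in control, in the same order of sides. At the 21 shared regions, with each library centred on its median, the interaction had a median log2 difference of -0.04, against -0.02 over all regions tested. Of the 21, 10 were wider on the side of Smc3-deleted Flt3-ITD and control.

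**Figure D4:**
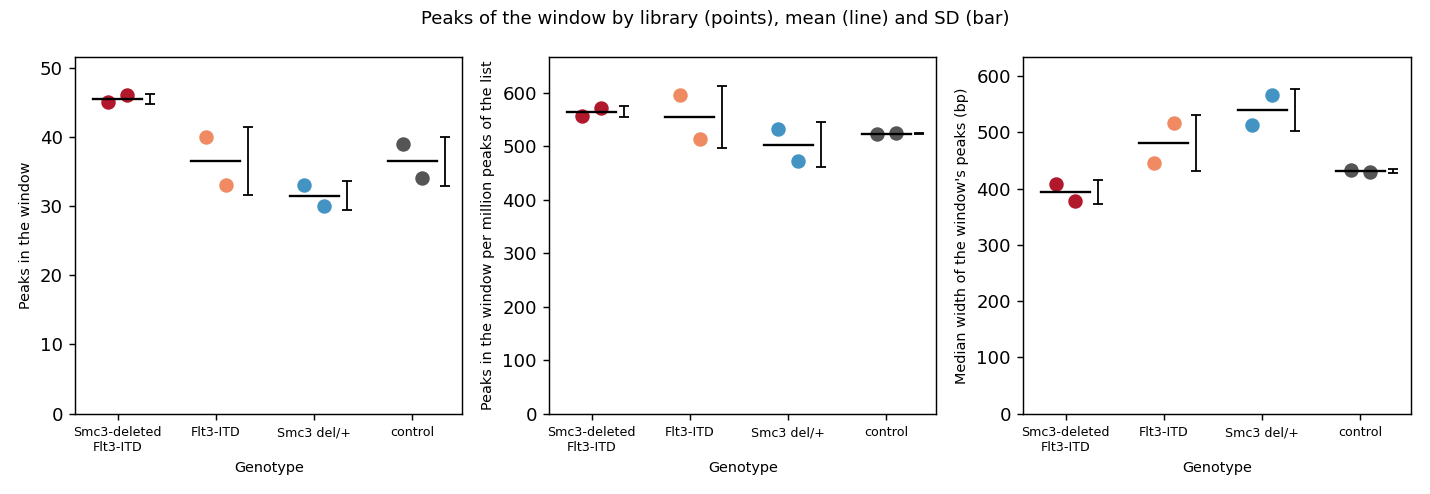
Peaks in the window (left), the same scaled to 1000000 peaks of the list (middle) and their median width in bp (right) for each library (points) by genotype, with the mean (line) and SD (bar) of 2 libraries. Smc3-deleted Flt3-ITD has the most peaks, 45 and 46. Scaled to list length it lies within the range of Flt3-ITD, 514 to 596. Both single genotypes have the higher median widths, taken over different peaks in each library.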

How the data were processed

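The deposited files are peak lists with 6 columns and no header, 1 per library, so replicates were not pooled. Per the submitters' processing notes, reads were aligned with Bowtie to mm9. The peak caller, the Tn5 offset and the treatment of duplicate reads were not stated. The score was deposited by the authors, between 0.99 and 1, and what it measures is not stated. No read numbers were used, so depth per library is unknown. Within the window 1 interval was repeated in its list and counted as deposited.

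The window was mm9 chr16:92600000-93060000. Peaks were merged at an overlap of at least 1 bp. Width is the number of bases under a library's peaks in a region. Log2 widths, centred on each library's median, were fitted with limma 3.58.1 in R 4.3.3 with a trended prior over all regions called in 8 libraries, with Benjamini-Hochberg adjustment and a threshold of 0.05. Calls were compared by rule, and window totals by exact permutation. Merging and the fit were tested on simulated data, with peaks set well apart and planted width changes larger than any in the window. Divided peaks and smaller changes were not simulated. Promoter sequences came from RefSeq tables of GRCm38.p6. Python 3.11.15, numpy 2.4.6, pandas 2.3.3 and matplotlib 3.10.9 were used.

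The window and the lists of regions were chosen with earlier results of these data known. Named with values are the 10 widest shared regions, every region gained or lost in a pair, and every region past the width threshold (0). Regions named beyond this rule are said to be so, or had a score of 1 in all libraries. Alternatives were a score filter, equal list length, exchanged labels of the single genotypes, other merging and calling, other scaling, a replicate block, and leaving out each library.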

Additional observations from a re-analysis of the deposited data

How the results depend on the processing

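The number of shared regions past the width threshold was 0 in every contrast under all 17 alternatives, the fit with the replicate number as a block (0 regions) and each left-out library (0 to 0) included. The number of regions tested in the window differed between settings. At an unadjusted p under 0.05 in limma, the main fit gave 12 results from 21 regions over 9 contrasts. With all 8 libraries kept, there were 7 results from 15 regions when a call needed 20% of the region. Regions called in at least 6 libraries gave 17 results from 27 regions, and the upper 50% of each list by score gave 12 from 5. The share over all regions is not given for these alternatives. Same-numbered libraries did not deviate together in width (correlations of -0.0133 to 0.00861 over 36101 regions). Widths alone cannot show whether the numbers pair samples in another way, and that was not tested. Without centring, the median log2 width of all regions moved by 0.10 for Smc3 del/+ over control, -0.12 for Smc3-deleted Flt3-ITD over Smc3 del/+ and -0.12 for the interaction. Depth is unknown and limits every call. Except where an alternative merges regions or drops peaks by construction, the cause of each change below was not tested. No share of all regions under the same alternative stands beside the counts below, so they are not read as high or low for the window.

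With only the upper 50% of each list by score, 34 regions lay in the window and 5 were called in every library. Smc3-deleted Flt3-ITD then gained 2 and lost 1 over control, gained 3 and lost 2 over Flt3-ITD, and gained 5 over Smc3 del/+. Flt3-ITD lost 1 over control, and gained 2 and lost 2 over Smc3 del/+. R8, its gain over control in the main setting, had no Flt3-ITD peak among the upper 50%, so the 1 gain then counted was another region. The differences for Smc3 deletion became 0 peaks, -1639.75 bp covered and -120.25 bp of median width. Those for Flt3-ITD became -9.37 peaks per 1000000 and 87.25 bp of median width, and the interaction in the share of bases 0.00674 percentage points. With 61953 peaks in every list, Smc3-deleted Flt3-ITD gained 3 and lost 4 over control, gained 2 over Flt3-ITD and gained 4 over Smc3 del/+, and Flt3-ITD lost 3 over control. The difference for Smc3 deletion became -1.5 peaks. Bases covered became -613.25 bp for Smc3 deletion, -38.25 bp for Flt3-ITD and -1478.75 bp for the interaction, whose share of bases became 0.00209 percentage points.

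With the labels of Flt3-ITD and Smc3 del/+ exchanged, Smc3-deleted Flt3-ITD gained 9 over Flt3-ITD and 5 over Smc3 del/+, Flt3-ITD lost 2 over control and Smc3 del/+ lost 0. The contrasts then trade places by construction: 46.5 peaks per 1000000, 0.00313 percentage points of bases and -48.4 bp of median width for Smc3 deletion, and -5.38, -0.00121 and 10.4 for Flt3-ITD. With peaks up to 200 bp apart merged, Smc3 del/+ gained 0 and Flt3-ITD lost 1 over control, and Smc3-deleted Flt3-ITD lost 0 over Smc3 del/+. With peaks up to 1000 bp apart merged, a setting chosen after seeing the data, these 3 counts were also 0, 1 and 0, and Smc3-deleted Flt3-ITD gained 2 and lost 2 over Flt3-ITD. When a call needed 20% of the region, Smc3 del/+ and Flt3-ITD each gained 2 over control, and Flt3-ITD gained 1 over Smc3 del/+. Taking only peaks wholly inside the window could change nothing, since no peak crossed an edge.

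Leaving out 1 library at a time left 58 to 62 regions, with 21 to 22 called in every library. Gains and losses ran from 7 to 11 and 2 to 6 for Smc3-deleted Flt3-ITD over control, 5 to 10 and 1 to 6 over Flt3-ITD, and 9 to 14 and 1 to 3 over Smc3 del/+. They ran from 1 to 7 and 0 to 6 for Flt3-ITD over control, 0 to 9 and 0 to 2 over Smc3 del/+, and 1 to 3 and 2 to 9 for Smc3 del/+ over control. For Smc3 deletion, Flt3-ITD and the interaction in turn, the differences ran from -0.5 to 4.83, 5.33 to 9.67 and 5.33 to 9.33 peaks; from -18.3 to 14.9, 33.03 to 61.8 and -2.76 to 38.1 peaks per 1000000; from -234.9 to 1667.25, 1932 to 3683 and 305.3 to 2687 bp covered; from -0.00286 to -0.000495, 0.00221 to 0.00442 and -0.00118 to 0.00131 percentage points of bases; and from -22.7 to 39.8, -74.5 to -21.7 and -119.25 to -79.4 bp of median width.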
